A study of Mus musculus with 16 samples.

Results

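H3K27me3 peaks of wild type mouse embryonic stem cells (ES) that were called in neither wild type nor PCGF5-depleted neural precursor cells (NPC) are described here. They were chosen as the peaks of the wild type ES list with no base in common with a peak of the wild type NPC list and none with a peak of the PCGF5-depleted NPC list. The rule gave 5631 of 11808 ES peaks, or 47.7%, and these are called lost peaks below. Of the other ES peaks, 4198 had a counterpart in both NPC lists and are called kept peaks. A further 883 had one only in the wild type list and 1096 only in the PCGF5-depleted list. Because the 3 lists that chose the members are also the readout, their number, their fold enrichment and their absence in NPC are given as a description.

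Chromatin immunoprecipitation followed by sequencing was performed in the 46C ES line, which carries a Sox1-GFP reporter of neural fate and was grown on inactivated mouse embryo fibroblasts with leukemia inhibitory factor and 2i inhibitors. PCGF5-depleted cells were labelled shPCGF5, for a short hairpin RNA against Pcgf5, and per the methods of the study such lines were made with lentivirus, although a nuclease knockout is described there as well. NPC were the cells obtained at day 6 of neural differentiation in suspension, from wild type or from PCGF5-depleted ES. H3K27me3 and H2AK119ub1 were each measured in wild type ES, PCGF5-depleted ES, wild type NPC and PCGF5-depleted NPC, and Flag-PCGF5 in ES and NPC that carry a Flag tag on the Pcgf5 gene. Each of these groups was 1 library with 1 peak list, so there is no replicate error and no test of conditions, and the files hold no read totals, so the depth is unknown. Shares carry 95% Wilson intervals and medians carry 95% order-statistic intervals, which cover counting error only. Expression markers of the cell types were not measured in these libraries. At the promoters of 23 annotated pluripotency genes, 1 gene had an H3K27me3 peak in wild type ES. In NPC 12 had one in the wild type list, the PCGF5-depleted list or both.

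H3K27me3, trimethylated lysine 27 of histone H3, is written by Polycomb repressive complex 2 and marks silent genes, mostly at CpG islands, which are promoter sequences rich in unmethylated CpG dinucleotides. H2AK119ub1, monoubiquitinated histone H2A, is written by Polycomb repressive complex 1, and PCGF5 is a subunit of some forms of that complex. In ES many promoters of developmental genes carry both marks, and during differentiation H3K27me3 is lost from genes that become active and stays at genes of other lineages.

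The lost peaks differed in sequence, and a few are printed to show the kinds. Each is the central 300 bases of the peak, or the whole peak where it is shorter, on the plus strand of NCBIM37, the assembly behind mm9, with every CpG in capitals. The first 3 are lost peaks at the start of protein-coding genes that were found again in PCGF5-depleted ES and whose genes had no NPC peak, and their sequence occurs once in the genome. Frmd4a is a scaffold protein of cell polarity (chr2:4322247-4322546), Lrrfip1 a nucleic acid binding protein (chr1:92895304-92895603) and Tdrd1 a Tudor domain protein of the germline (chr19:56900719-56901018).
Frmd4a: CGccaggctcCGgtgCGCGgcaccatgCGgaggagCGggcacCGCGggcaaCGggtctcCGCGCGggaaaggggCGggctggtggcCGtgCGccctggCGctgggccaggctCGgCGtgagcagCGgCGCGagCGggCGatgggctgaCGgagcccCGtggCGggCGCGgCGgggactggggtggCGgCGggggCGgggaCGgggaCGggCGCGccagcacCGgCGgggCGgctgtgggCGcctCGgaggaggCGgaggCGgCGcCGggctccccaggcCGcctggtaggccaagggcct
Lrrfip1: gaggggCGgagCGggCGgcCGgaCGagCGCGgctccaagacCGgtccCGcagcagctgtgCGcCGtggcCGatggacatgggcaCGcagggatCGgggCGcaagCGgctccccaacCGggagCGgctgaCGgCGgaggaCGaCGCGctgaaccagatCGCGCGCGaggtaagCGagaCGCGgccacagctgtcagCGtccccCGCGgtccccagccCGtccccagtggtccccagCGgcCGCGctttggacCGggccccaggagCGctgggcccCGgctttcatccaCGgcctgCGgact
Tdrd1: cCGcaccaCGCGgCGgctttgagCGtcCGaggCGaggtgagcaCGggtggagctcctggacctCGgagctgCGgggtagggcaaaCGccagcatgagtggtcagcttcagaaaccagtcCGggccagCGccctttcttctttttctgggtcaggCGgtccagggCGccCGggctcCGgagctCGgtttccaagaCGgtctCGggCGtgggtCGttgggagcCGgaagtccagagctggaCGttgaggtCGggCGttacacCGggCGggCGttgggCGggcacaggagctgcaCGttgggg
The next 3 are the highest in fold of those found again at a promoter with no NPC peak at the gene. They lie in a family of near-identical predicted genes on chromosome 14, at Gm2237 (chr14:20404124-20404423), Gm8348 (chr14:3518490-3518789) and the pair Gm1973 and Gm2963 (chr14:3438601-3438776).
Gm2237: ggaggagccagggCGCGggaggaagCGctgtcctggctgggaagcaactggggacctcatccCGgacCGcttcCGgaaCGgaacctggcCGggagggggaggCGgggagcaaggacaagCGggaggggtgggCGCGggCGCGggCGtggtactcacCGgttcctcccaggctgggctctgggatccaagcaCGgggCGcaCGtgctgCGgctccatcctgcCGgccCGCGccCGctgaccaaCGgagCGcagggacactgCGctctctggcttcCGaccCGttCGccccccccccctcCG
Gm8348: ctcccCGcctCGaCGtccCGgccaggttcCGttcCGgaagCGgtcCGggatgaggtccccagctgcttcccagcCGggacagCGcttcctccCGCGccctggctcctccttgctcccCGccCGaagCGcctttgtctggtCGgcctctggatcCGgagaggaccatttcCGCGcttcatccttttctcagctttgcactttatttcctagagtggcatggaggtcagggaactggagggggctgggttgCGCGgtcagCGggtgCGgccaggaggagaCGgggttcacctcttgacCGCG
Gm1973 and Gm2963: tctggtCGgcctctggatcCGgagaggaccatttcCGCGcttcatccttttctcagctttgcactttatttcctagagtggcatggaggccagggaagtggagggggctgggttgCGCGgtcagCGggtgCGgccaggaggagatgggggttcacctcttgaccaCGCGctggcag
The last 4 hold no CpG and consist of short units in tandem. The peak at Coro2b, a coronin that binds actin (chr9:62360348-62360511), was found again in PCGF5-depleted ES. Those at Asb2, a subunit of a ubiquitin ligase (chr12:104595069-104595295), and Grid2ip, a partner of a glutamate receptor (chr5:144123791-144124039), were the highest in fold at a promoter among those not found again. The intergenic peak whose nearest gene was Hmgn3 (chr9:82984182-82984481) had the highest fold of all lost peaks.
Coro2b: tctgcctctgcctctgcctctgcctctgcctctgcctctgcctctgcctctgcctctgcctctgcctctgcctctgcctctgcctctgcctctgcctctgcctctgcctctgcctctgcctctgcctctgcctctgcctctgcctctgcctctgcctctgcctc
Asb2: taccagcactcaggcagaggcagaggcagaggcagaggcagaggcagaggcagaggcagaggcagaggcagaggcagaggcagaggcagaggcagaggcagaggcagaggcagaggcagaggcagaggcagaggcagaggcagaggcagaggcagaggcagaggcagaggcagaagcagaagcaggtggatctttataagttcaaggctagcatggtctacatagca
Grid2ip: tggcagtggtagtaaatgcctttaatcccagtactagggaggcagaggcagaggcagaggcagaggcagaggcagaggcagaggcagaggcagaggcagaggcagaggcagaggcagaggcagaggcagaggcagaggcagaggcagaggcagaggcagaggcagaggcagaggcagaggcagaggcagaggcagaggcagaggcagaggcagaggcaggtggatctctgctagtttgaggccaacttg
Hmgn3: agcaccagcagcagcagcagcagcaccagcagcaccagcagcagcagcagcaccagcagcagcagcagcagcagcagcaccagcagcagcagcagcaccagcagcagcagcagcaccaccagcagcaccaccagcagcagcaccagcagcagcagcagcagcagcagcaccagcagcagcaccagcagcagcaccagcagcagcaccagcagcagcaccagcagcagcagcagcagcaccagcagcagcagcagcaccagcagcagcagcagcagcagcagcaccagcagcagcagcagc
Capitals thus number 46 CpG at Frmd4a, 42 at Lrrfip1, 31 at Tdrd1, 31 at Gm2237, 26 at Gm8348 and 10 at Gm1973 and Gm2963, against 0 in each of the last 4.

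To see where the lost peaks lie, each peak was placed by its centre in the GENCODE M1 annotation, with a promoter defined as 2500 bp on either side of the start of a protein-coding transcript. Of the lost peaks, 1357 (24.1%, 23.0 to 25.2) were at a promoter, against 44.0% of all ES peaks and 65.1% (63.7 to 66.6) of the kept peaks. Introns held 1664 lost peaks (29.6%, with 19.8% of all ES peaks) and exons 546 (9.70%, with 8.26%). The remaining 2064 were intergenic (36.7%, with 28.0%). The median distance from a lost peak to the nearest start site was 14375 bp (13352 to 15542), against 1210 bp (1150 to 1278) for a kept peak. Lost peaks were therefore mostly away from promoters, which were the main site of the kept peaks. Lost peaks were also narrower, with a median width of 222 bp (219 to 225) against 381 bp (373 to 393) in kept peaks. Over all ES peaks the median was 266 bp. It was 289 bp in peaks with a counterpart only in PCGF5-depleted NPC and 273 bp in those with one only in wild type NPC.

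Peaks were sorted by sequence into CpG-rich ones, with a GC content of at least 55% and an observed to expected CpG ratio of at least 0.6, tandem repeats, and others. A peak was called a tandem repeat where at least 70% of the central bases matched the base a fixed distance away, for the best of the distances from 1 to 60 bases. Among the lost peaks 772 were CpG-rich (13.7%, 12.8 to 14.6, with 30.8% of all ES peaks), and among the kept peaks 2155 were (51.3%, 49.8 to 52.8). Tandem repeats made up 844 lost peaks (15.0%, 14.1 to 15.9, with 10.4% of all ES peaks) and 110 kept peaks (2.62%, 2.18 to 3.15). They were not particular to the lost peaks. Of the 1096 ES peaks with a counterpart only in PCGF5-depleted NPC, 257 (23.4%, 21.0 to 26.0) were tandem repeats. Of the 883 with one only in wild type NPC, 15 (1.70%) were. The other 4015 lost peaks (71.3%, with 58.8% of all ES peaks) were neither. The median observed to expected CpG ratio was 0.266 (0.260 to 0.274) in lost peaks and 0.630 (0.620 to 0.640) in kept peaks, and 0.594 in windows of 300 bases around 45974 start sites. Over all ES peaks the median ratio was 0.412. It was 0.319 in peaks with a counterpart only in PCGF5-depleted NPC and 0.622 in those with one only in wild type NPC. GC content was closer, with medians of 58.2% (57.9 to 58.4) in lost and 62.5% (62.2 to 62.8) in kept peaks.

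**Figure D1:**
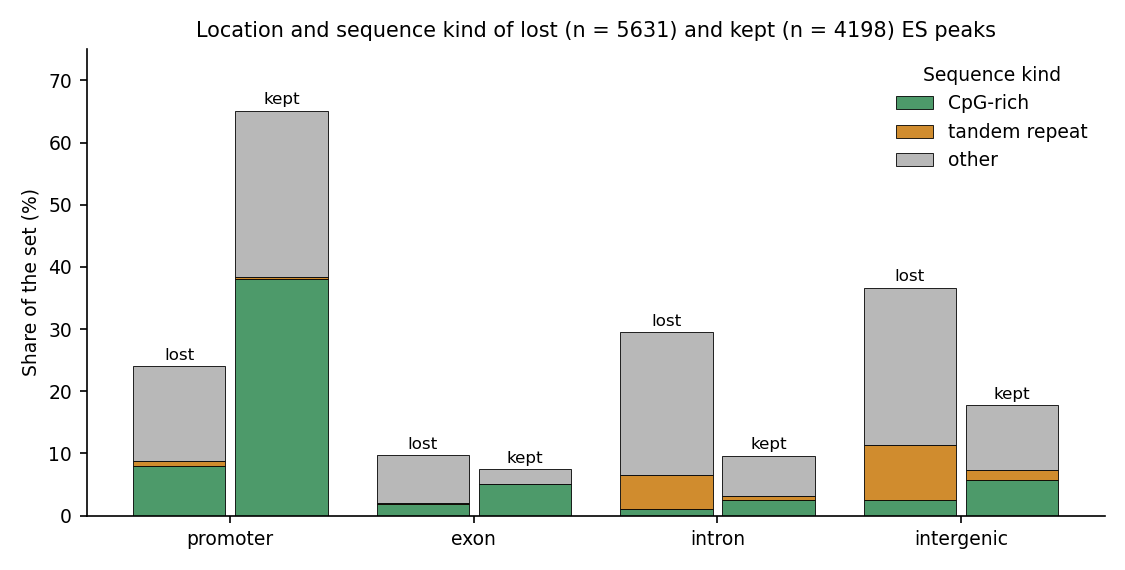
Share of lost and kept wild type ES H3K27me3 peaks (y axis, percent of each set) by location (x axis), with the colours giving the sequence kind. Promoters hold 24.1% of the lost and 65.1% of the kept peaks, and tandem repeats are seen mainly in introns and intergenic sequence.

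The location and the sequence kind went together. At promoters 454 of 1357 lost peaks (33.5%) were CpG-rich, against 1599 of 2734 kept peaks (58.5%). In exons the shares were 20.1% of lost and 67.6% of kept peaks. Tandem repeats formed 498 of 2064 intergenic lost peaks (24.1%) and 302 of 1664 intronic ones (18.1%), but 41 of 1357 at promoters (3.02%). In promoters and exons alike, a smaller share of the lost than of the kept peaks was CpG-rich.

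The most frequent unit among the lost tandem repeats was 6 bases long, in 246 of 844 peaks (29.1%), as printed above for Coro2b, Asb2 and Grid2ip. The 12-base word that most ES tandem repeats of a 6-base period share is AGAGGCAGAGGC, 2 copies of such a unit, and it was searched on both strands of the central bases. It was found in 320 lost peaks (5.68%, 5.11 to 6.32), in 15 kept peaks (0.357%, 0.217 to 0.589) and in 3.79% of all ES peaks, beside 0.117% of the start-site windows. Peaks with a counterpart only in PCGF5-depleted NPC held it more often (111 of 1096, 10.1%), and those with one only in wild type NPC less often (0.227%). Of the lost peaks with the motif, 294 were tandem repeats. The word was taken from this same ES list, where tandem repeats of a 6-base period were 246 lost and 20 kept peaks. Its higher share in lost than in kept peaks is therefore no separate result. The start-site windows also lie at promoters, unlike most lost peaks.

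Because reads of such sequences can come from several places, the central bases of each peak were cut into words of 32 bases, and each word was counted on both strands of the assembly. Peaks with under 50% of their words at 1 place were called recurring. This held for 1418 lost peaks (25.2%, 24.1 to 26.3), for 18.5% of all ES peaks and for 357 kept peaks (8.50%, 7.70 to 9.39). The share was higher, 33.7% (369 of 1096), in peaks with a counterpart only in PCGF5-depleted NPC. It was 4.76% in those with one only in wild type NPC. Of the 1418, 733 were tandem repeats, 126 were CpG-rich and 559 were neither. At the extreme, the median word of the Coro2b peak occurred at 26411 places and that of the Asb2 and Grid2ip peaks at 26108. Which of those places gave the reads cannot be told apart from the peak lists. Without recurring peaks, 4213 lost peaks remained, of which 1174 were at a promoter (27.9%, 26.5 to 29.2), against 68.6% (67.1 to 70.0) of 3841 kept peaks.

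Fold enrichment over the local background, as the peak caller of the authors gave it, was low in most lost peaks. The median was 4.03, with 10% of the lost peaks below 3.35 and 10% above 5.36, and the range was 1.58 to 15.7. Kept peaks had a median of 4.56 and a range of 1.53 to 16.6. With the ES list split by fold into 4 bins of equal number, the share that was lost was 61.8% (1825 of 2952) in the lowest bin, then 54.8% and 45.0%, and 29.2% (861 of 2952) in the highest. A q-value above 0.05 was listed for 691 lost peaks (12.3%, 11.4 to 13.2) and for 206 kept peaks (4.91%, 4.29 to 5.60).

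Tandem repeats were more frequent among the lost peaks of high fold than among the lost peaks as a whole. In the highest bin, with a fold from 5.09 upwards, 333 of 861 lost peaks (38.7%) were tandem repeats and 155 were CpG-rich, against 71 (4.59%) and 1025 (66.3%) of 1547 kept peaks. Of 351 peaks in that bin with a counterpart only in PCGF5-depleted NPC, 154 (43.9%) were tandem repeats. Of 193 with one only in wild type NPC, 5 (2.59%) were. The intergenic peak 29810 bp from Hmgn3 had a fold of 15.7 and a −log10 p-value of 47.6. Next among intergenic peaks, with a fold of 10.4 each, were tandem repeats nearest to Msi2 and Cpvl, then one nearest to Gm5084 at 10.1 and a CpG-rich one nearest to Gm3597 at 9.68. In introns, the highest were Gm3752 at 10.8, Zfp420 at 10.7, an intron of Wdr96 at 10.2, Rin3 at 10.1 and Ulk4 at 10.0, and all 5 were recurring sequence. Median fold was 4.56 (4.56 to 4.81) in lost tandem repeats, 4.30 in lost CpG-rich peaks and 4.03 in the others.

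**Figure D2:**
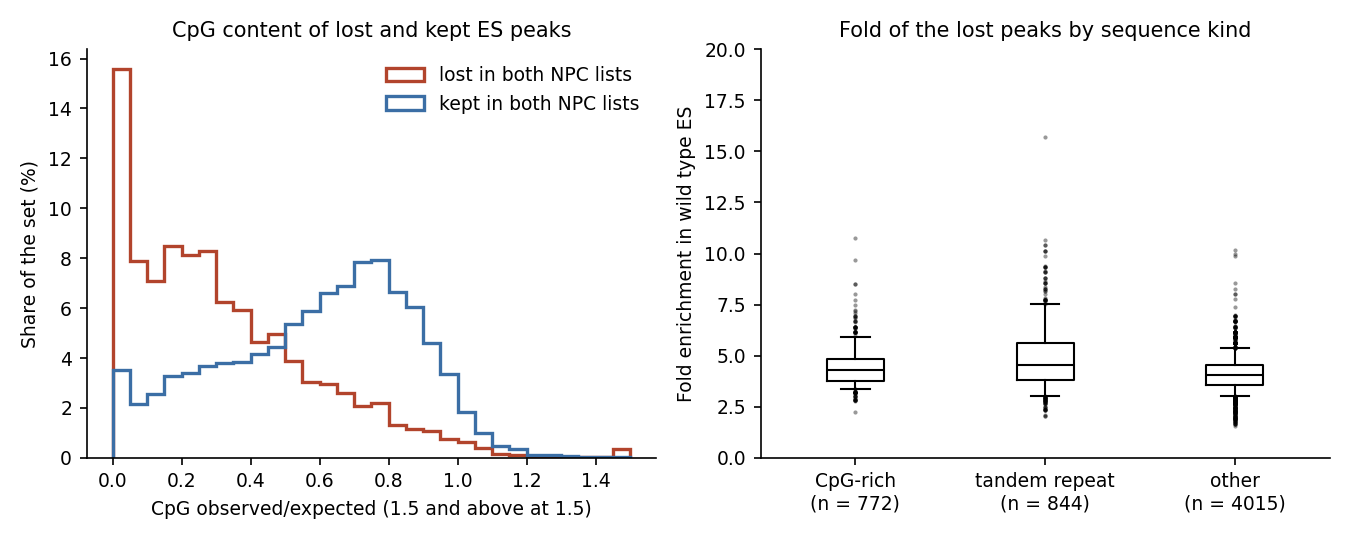
Left, distribution of the observed to expected CpG ratio (x axis) in lost and kept peaks (y axis, percent of each set). Right, fold enrichment of the lost peaks in wild type ES by sequence kind, with boxes for the quartiles, whiskers from the 5th to the 95th percentile and points beyond. The lost peaks have a median ratio of 0.266 and the kept peaks one of 0.630, and the highest fold, 15.7, is a tandem repeat.

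Among the lost peaks in exons, a pair in Flg, which encodes filaggrin of the skin barrier, had folds of 7.75 and 6.47 and was recurring, with a median word at 15 places. A peak in an exon of Elfn2 had a fold of 6.42 and was not recurring. The widest lost peaks were 2471 bp wide between genes 13847 bp from Nrbp2, 2003 bp wide near Srd5a2 and 1543 bp wide at the promoters of Sp110 and Sp140. Next came a peak of 1464 bp in an intron of Rbm20 and one of 1349 bp in an exon of Shank2, a scaffold of synapses. Of these 5, the Shank2 peak was the only one that was not recurring, and all 5 were overlapped by H3K27me3 of PCGF5-depleted ES.

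Whether the lost peaks were found again in ES was asked of the PCGF5-depleted ES list, which did not enter the rule. It overlapped 892 of 5631 lost peaks, a share of 15.8% (14.9 to 16.8), against 35.1% of all ES peaks and 2390 of 4198 kept peaks (56.9%, 55.4 to 58.4). A lost peak was therefore found again less often than an ES peak in general, and 4739 lost peaks were in wild type ES H3K27me3 alone among the 4 H3K27me3 lists. Of these 4739, 707 (14.9%, 13.9 to 16.0) had a peak of PCGF5-depleted ES within 1 kb. Since wild type and PCGF5-depleted ES were 1 library each, an effect of the depletion and a failure to call the same peak in a second library cannot be told apart.

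The difference between lost and kept peaks was present in every bin of fold. From the lowest to the highest bin, 11.8%, 11.8%, 16.7% and 30.7% of the lost peaks were found again, beside 46.0%, 43.2%, 52.2% and 72.9% of the kept peaks. With tandem repeats and recurring sequence left out the lost shares were 9.63%, 11.3%, 15.1% and 25.9%, and the kept ones 42.0%, 41.8% and 50.5% in the lower 3 bins, then 948 of 1354 peaks. At a like fold in wild type ES, the lost peaks were thus found again less often in each bin. Width and CpG content moved with the classes as well, and their part in the difference was not tested.

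**Figure D3:**
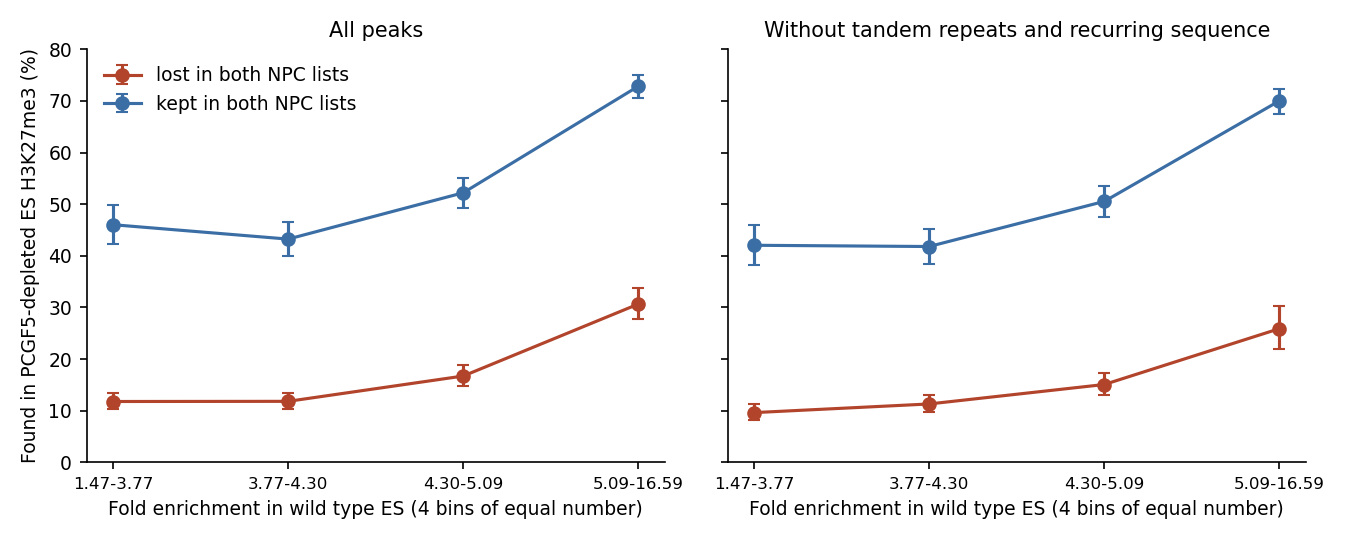
Share of lost and kept peaks overlapped by H3K27me3 of PCGF5-depleted ES (y axis, percent) in each of 4 equal bins of the wild type ES list by fold (x axis, range of each bin), for all peaks and without tandem repeats and recurring sequence. Points are shares and bars 95% Wilson intervals. In both panels every lost point lies below every kept point, with 30.7% in the highest lost bin of all peaks and 43.2% as the lowest kept value.

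Sequence kind and location divided the lost peaks in this readout. Found again were 221 of 772 CpG-rich lost peaks (28.6%), 211 of 844 tandem repeats and 460 of 4015 others (11.5%). For CpG-rich lost peaks at a promoter the share was 153 of 454 (33.7%). Kept CpG-rich peaks were found again in 1368 of 2155 cases (63.5%), kept tandem repeats in 87 of 110 (79.1%). Among the 892 lost peaks found again, the overlapping peak of PCGF5-depleted ES had a median fold of 5.07, the same as all 10234 peaks of that list, and that of the kept peaks found again was 5.45. In wild type ES the 892 had a median fold of 4.35 (4.30 to 4.56). Folds of different libraries were scaled within each library and are set side by side without a test.

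The same rule was applied in the other direction, to the peaks of PCGF5-depleted ES. There 4305 of 10234 peaks (42.1%) overlapped neither NPC list, and 905 of these (21.0%, 19.8 to 22.3) were overlapped by wild type ES, beside 2469 of 3959 peaks (62.4%, 60.8 to 63.9) kept in both. In either ES list, then, a peak without a counterpart in NPC was the one less often called in the other ES list. Both directions used the same NPC lists and the same overlaps between the ES lists, so the second is not separate support. By the rule, a kept peak had already been called in both NPC libraries and a lost peak in neither. The part of this selection in the difference was not tested.

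H2AK119ub1 at the lost peaks was compared between the 4 cell states. In wild type ES it overlapped 1050 lost peaks (18.6%, 17.7 to 19.7, with 27.4% of all ES peaks) and in PCGF5-depleted ES 395 (7.01%, 6.38 to 7.71, with 17.7%). In wild type NPC the number was 14 (0.249%, 0.148 to 0.417, with 13.3%), and in PCGF5-depleted NPC 73 (1.30%, 1.03 to 1.63, with 13.0%). Kept peaks were overlapped at 39.0%, 30.6%, 34.9% and 31.5% in the same order. Thus the lost peaks, which were chosen on H3K27me3, were almost without called H2AK119ub1 in NPC as well. More than 30% of the kept peaks carried this mark in every state. A low share in NPC was not particular to the lost peaks. ES peaks with a counterpart only in wild type NPC were overlapped at 13.9%, 6.34%, 7.02% and 1.47%, again in that order. For those with one only in PCGF5-depleted NPC the values were 39.0%, 32.1%, 2.37% and 11.4%. In either class the lower NPC value belonged to the cells whose H3K27me3 list had no counterpart. Each value rests on 1 library.

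Among the lost peaks, H2AK119ub1 was most frequent in tandem repeats, although most of the 1050 overlapped peaks were of the other kind. In wild type ES it overlapped 379 of 844 lost tandem repeats (44.9%, 41.6 to 48.3), 625 of 4015 others (15.6%) and 46 of 772 CpG-rich peaks (5.96%). Kept CpG-rich peaks were overlapped in 785 of 2155 cases (36.4%). Leaving out recurring sequence lowered the share of the lost peaks to 12.8% (541 of 4213) and that of the kept peaks to 35.8%. Of the 14 lost peaks with H2AK119ub1 in wild type NPC, 8 were tandem repeats. By fold, the lost peaks with this mark in NPC included one near Cyp2a5, one near Exosc2 and one near Npffr2, all tandem repeats, and promoter peaks of Trim44 and Vipr1, which lay 9 and 95 bp from an NPC H3K27me3 peak. These were picked after their values were seen.

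Flag-PCGF5 of NPC overlapped 170 lost peaks (3.02%, 2.60 to 3.50, with 5.56% of all ES peaks) and 345 kept peaks (8.22%, 7.43 to 9.09). In ES it overlapped 16 (0.284%, 0.175 to 0.461, with 0.356%) and 18. Among CpG-rich lost peaks 53 of 772 (6.87%) were overlapped in NPC, among tandem repeats 4 of 844 (0.474%). The highest in fold, again picked after their values were seen, were the promoter peaks of Pkdcc, a secreted protein kinase, Lrrfip1, Tmem215 and Fam149a, and a peak 9274 bp from Nkx1-1. At Lrrfip1 the Flag peak had a fold of 5.70. No other list overlapped 3747 lost peaks (66.5%, 65.3 to 67.8).

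**Figure D4:**
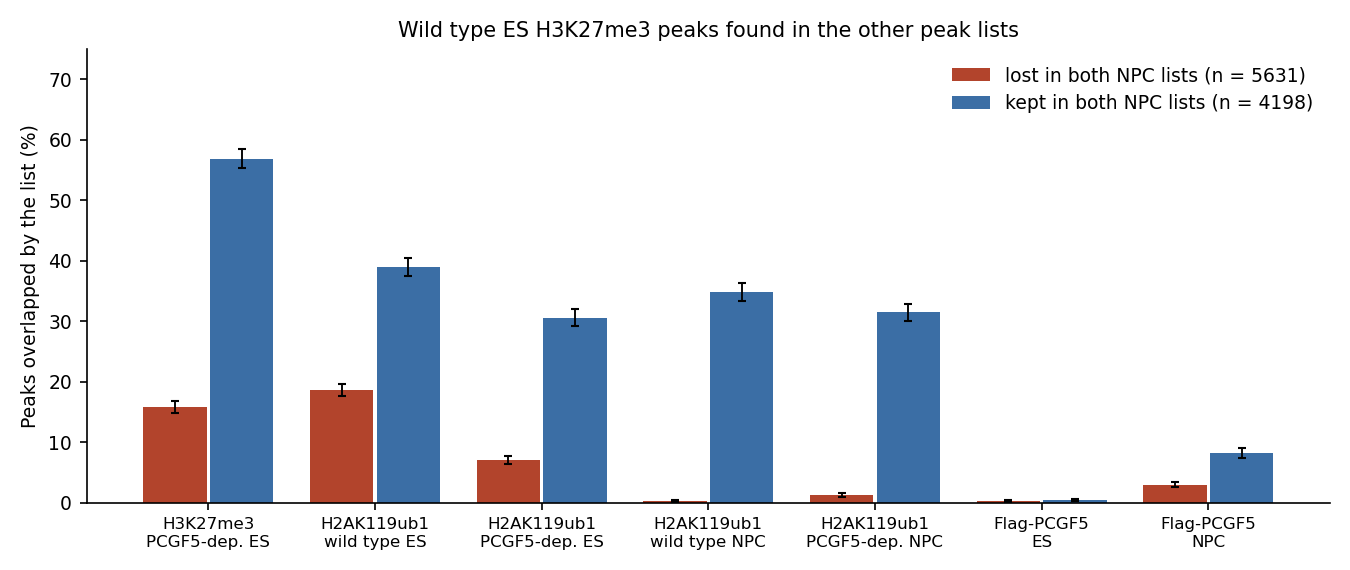
Share of the 5631 lost and 4198 kept wild type ES H3K27me3 peaks (y axis, percent) overlapped by at least 1 bp by each of the 7 lists that did not enter the rule (x axis). Bars are shares and whiskers 95% Wilson intervals. The lost peaks reach 18.6% with H2AK119ub1 of wild type ES and fall to 0.249% with that of wild type NPC.

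The gap to the nearest NPC peak varied widely. Its median was 29363 bp, with a range from 1 bp to 3822270 bp. It was at most 1 kb in 902 lost peaks (16.0%, 15.1 to 17.0), at most 5 kb in 1571 (27.9%) and over 100 kb in 1446 (25.7%, 24.6 to 26.8). Of the 902 close ones 492 (54.5%) were at a promoter and 22 (2.44%) were tandem repeats. Of the 1446 distant ones 286 (19.8%) were at a promoter and 353 (24.4%) were tandem repeats. At the threshold of the rule, 22 lost peaks lay 10 bp or less from an NPC peak, and 22 peaks that were not counted as lost owed this to an overlap of under 10 bp.

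Lost peaks were spread over 1496 windows of 1 Mb, of which 560 held 1 and 358 held 5 or more. Most were in chr7:150000001-151000000, with 52 lost of 71 ES peaks, 2 of them found again in PCGF5-depleted ES. It holds the imprinted genes Kcnq1, Cdkn1c and Phlda2, and 1 of the 52 was recurring. Other dense windows were chr12:113000001-114000000 around Akt1 and Kif26a (42 of 50), chr8:123000001-124000000 around Foxf1a, Foxc2 and Irf8 (35 of 60) and chr15:101000001-102000000 with keratin genes (29 of 31). These had at most 7 recurring lost peaks each. In chr1:85000001-86000000, by contrast, all 38 lost peaks were recurring, and in chr6:114000001-115000000 28 of 38 were, in a window of 157 ES peaks.

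The multicopy loci on chromosomes 1 and 14 were examined as blocks. In chr14:3000001-9000000, which holds Gm8348 and the pair Gm1973 and Gm2963 printed above, 89 of 111 ES peaks were lost, 88 of them recurring, 34 at a promoter and 33 found again. Their median fold was 4.23 and the median word occurred at 15 places. In chr1:85000001-88000000, around C130026I21Rik, Sp110 and Sp140, 64 of 68 were lost, all 64 were recurring and 9 were found again. By chromosome the lost share ran from 38.3% on chromosome 6 to 69.0% (60.1 to 76.7) on chromosome X, where 74 of the 80 lost peaks were recurring.

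At the level of genes, 1101 of 22232 protein-coding genes (4.95%) had a lost peak at a promoter, and 883 of them had just 1. In 559 a promoter of the gene held an H3K27me3 peak in an NPC list, and 230 of the 1101 also had a kept ES peak at a promoter. In a gene with several start sites this need not be the promoter of the lost peak, as at the potassium channel partner Kcnip1, whose lost peak lay 148271 bp from the nearest NPC peak. The other 542 genes (2.44% of all) had no NPC peak at any promoter and are called cleared genes. They were 49.2% (46.3 to 52.2) of the 1101, and 542 of the 545 genes without an NPC peak among the 2976 with any ES promoter peak. The latter count is nearly fixed by the definitions and is no separate result. At such a gene an ES promoter peak escapes being lost only by touching an NPC peak centred outside the promoter window. In PCGF5-depleted ES, 183 of the 542 (33.8%, 29.9 to 37.8) had an H3K27me3 peak at the promoter, and in 115 the lost peak itself was found again. Of these 542, 211 had a CpG-rich lost peak, 182 had one that was not recurring, and in 48 that peak was found again as well.

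Genes of that last kind, ranked by fold, opened with Frmd4a. The centre of its peak lay 120 bp from a start site, and the peak had a fold of 6.69 in wild type ES and 5.84 in PCGF5-depleted ES, and the nearest NPC peak was 116878 bp away. The Lrrfip1 peak had folds of 6.42 and 6.22 and the nearest NPC peak at 344254 bp. Tdrd1 had 6.16 and 5.84, Setd7, a lysine methyltransferase, had 5.89 and 5.84, and Maml3, a coactivator of Notch signalling, had 5.89 and 6.61. Below these came Efnb2, the ephrin-B2 ligand of axon guidance and vessel growth, at 5.36 and 5.45, and App, the amyloid precursor protein, at 5.09 and 3.91. The restriction to CpG-rich sequence at 1 place was added after the values were seen. No H2AK119ub1 peak of wild type ES overlapped the Frmd4a, Lrrfip1, Tdrd1 or Setd7 peaks, and one with a fold of 3.94 overlapped that of Maml3.

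Of the 15 promoter peaks of highest fold that were found again at a cleared gene, without regard to sequence, 7 were at predicted genes of chromosome 14. These were Gm2237 at 8.50, Gm8348 at 8.01, Gm1973 and Gm2963 at 7.23, Gm3020 at 6.89, Gm3512 at 6.68, Gm10021 at 6.30 and Gm10409 at 6.04, and all were recurring. The tandem repeats at Coro2b, Gm20508 and Ctss, a lysosomal protease of antigen presentation, had folds of 7.22, 6.70 and 6.69. Gm6996 had 6.17 and was recurring. Frmd4a, Lrrfip1, Evpl and Tdrd1 were the 4 peaks at 1 place, with Evpl, an envelope protein of squamous epithelia, at 6.42 in wild type and 5.07 in PCGF5-depleted ES.

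Among promoter peaks not found again, the highest folds were at Asb2 with 10.1 and Grid2ip with 7.75, both tandem repeats. Pxdn, a peroxidase of the extracellular matrix, followed at 7.48, and its nearest NPC peak was 752904 bp away. Aff3, a nuclear protein of the AF4 family, and Cacna1h, a T-type calcium channel, had 6.95 each. The last 3 were not recurring, and no H3K27me3 peak of PCGF5-depleted ES overlapped them. These peaks were chosen without regard to NPC peaks at the gene. Cacna1h had an H3K27me3 peak at a promoter in an NPC list, and the Grid2ip peak lay 1322 bp from an NPC peak.

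The genes with most lost promoter peaks were Flg with 10, C130026I21Rik with 9, Ank1 and Sp140 with 6 each and Gm3002 with 5, which Hpn equalled. Of the 10 at Flg 8 were found again, while 1 of the 9 at C130026I21Rik was. Flg and Ank1, which encodes an ankyrin of the membrane skeleton, also had an NPC peak at a promoter. C130026I21Rik, Sp140 and Gm3002 did not.

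To read the lost peaks by function, 19 gene lists were counted, each beside all protein-coding genes, of which 4.95% had a lost promoter peak and 2.44% were cleared. Only a gene with an ES promoter peak can have a lost one. Over all 22232 genes, 2976 had an ES promoter peak and 1101 of these had a lost one. The shares below are of all annotated genes of a list, so they also follow how many had an ES peak. In the neural lists few genes were concerned. Of 49 annotated neural progenitor and proneural genes, 41 had an ES promoter peak, 39 a kept one, 3 a lost one (6.12%) and 0 were cleared. The 3 were the homeobox genes Irx3, Pou3f1 and Pax6, with highest folds of 5.36, 5.09 and 4.83, and each had an H3K27me3 peak at a promoter in both NPC lists. Pax6 had 4 lost peaks at its promoters and Pou3f1 had 3. Of 31 neuronal differentiation genes, 18 had an ES peak and 1 was cleared. It was Th, tyrosine hydroxylase of catecholamine synthesis, with 3 lost peaks of a fold of at most 4.30. Of the study's genes, Cdh2 had 1 ES promoter peak and Pou3f2 had 2, of which 0 were lost. Nes, Nodal, Lefty1 and Lefty2 had 0 ES promoter peaks, so none could be lost, and Sox1 was not in the annotation under that name.

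In the lists of other germ layers and of signals, most genes with a lost peak had an NPC peak at a promoter. Of 37 mesoderm and primitive streak genes 0 were cleared, and Gata4, a transcription factor of the heart and endoderm, had a lost peak at 4.03. Of 23 endoderm genes, Cxcr4 (5.09) and Hnf4a (4.56) did, and Hnf4a, a nuclear receptor of liver and gut, was cleared. All 39 Hox genes had an NPC peak and 34 an ES peak, and 0 had a lost one. In the TGF-beta, Nodal and BMP pathway, 4 of 55 genes (7.27%) had a lost peak and 0 were cleared. They were the receptor Bmpr1b at 4.56, the inhibitor follistatin (Fst) at 4.30, Ltbp1, which binds latent TGF-beta, at 4.30 and the activin subunit Inhba at 3.77. Among Wnt ligands, receptors and antagonists 6 of 38 (15.8%) had one, led by Wnt5a at 5.09 and Fzd8 at 4.30, and 1 was cleared, the antagonist Sfrp2 at 4.03. Among FGF ligands and receptors 6 of 25 (24.0%) did, led by Fgfr2 at 5.09 and Fgfr3 at 4.86, and 1 was cleared, the ligand Fgf6 at 4.83. In axon guidance 13 of 58 (22.4%) did and 3 were cleared, the ephrin-B2 gene, the Eph receptor gene Epha1 at 4.56 and the semaphorin Sema5a at 3.77. An ES promoter peak was present in 23 of the TGF-beta, Nodal and BMP genes, 25 Wnt, 17 FGF and 35 axon guidance genes. A lost one was held by 4 of these 23, 6 of the 25, 6 of the 17 and 13 of the 35. Over all genes it was held by 1101 of 2976. On that base none of these lists stood clearly above all genes. Their high shares of annotated genes with a lost peak are thus not a measure of more loss.

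Germline genes had the highest share of cleared members among the 19 lists. Of 30 genes, 13 had an ES promoter peak, 9 a lost one (30.0%) and 8 were cleared (26.7%), beside 2.44% of all genes. By fold these began with Tdrd1 at 6.16, the piRNA pathway genes Mael and Piwil1 at 4.83 each, and Dazl, an RNA-binding protein of germ cells, at 4.56. In 4 of the 8 the lost peak was found again in PCGF5-depleted ES, namely Tdrd1, Mael, Piwil1 and the synaptonemal complex gene Sycp2. None of the 8 peaks was recurring. The list had been chosen with results of these data known, and no test was made of it.

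**Figure D5:**
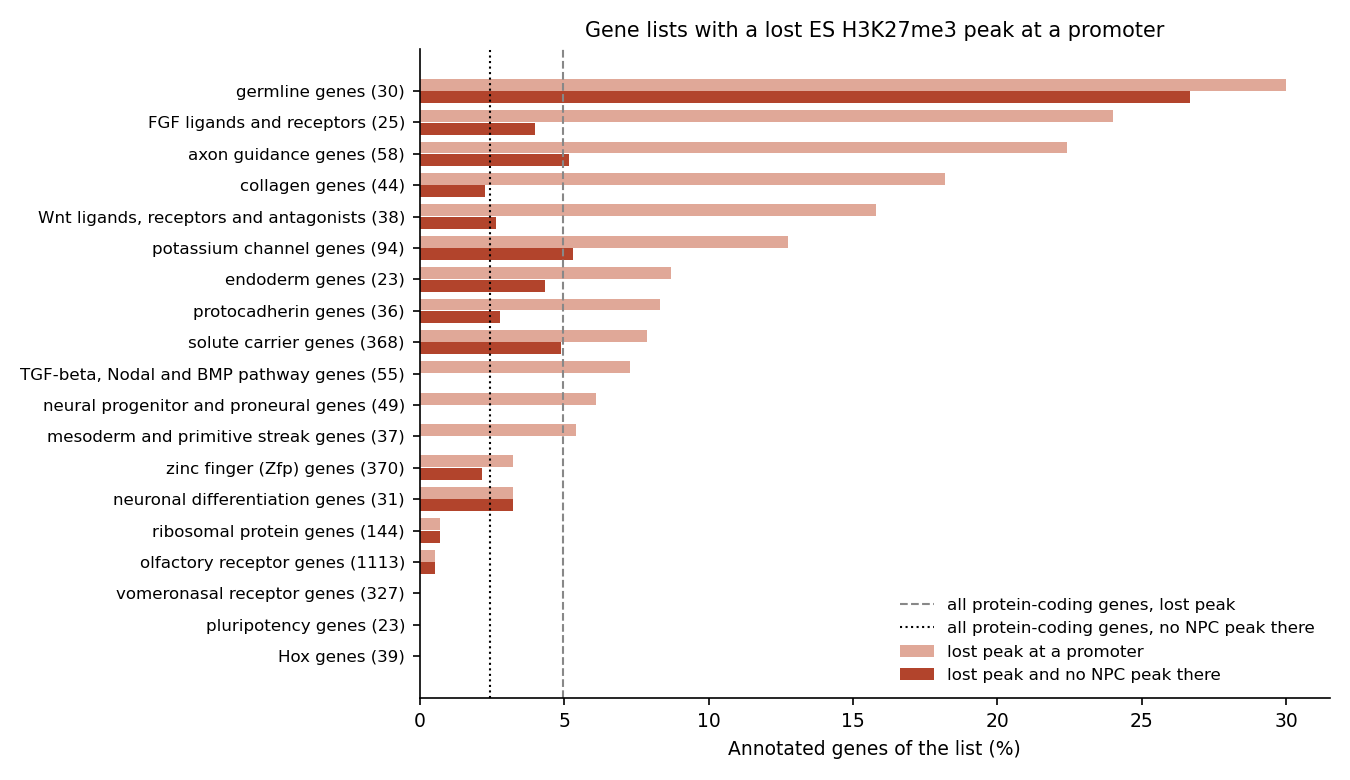
Share of the annotated genes in each of 19 lists (x axis, percent; the number of genes is given in parentheses) with a lost peak at a promoter and with a lost peak there but no H3K27me3 peak in either NPC list. Dashed and dotted lines mark the same shares of all protein-coding genes, 4.95% and 2.44%. Germline genes reach 30.0% and 26.7%, and FGF genes 24.0% and 4.00%. Genes without an ES promoter peak that could be lost are included in each list.

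Families were counted by name as well. An ES promoter peak was present in 56 potassium channel, 74 solute carrier, 18 collagen and 25 Zfp genes. A lost one was held by 12 of these 56, 29 of the 74, 8 of the 18 and 12 of the 25. In the same order 5, 18, 1 and 8 genes were cleared. Over all 2976 genes with an ES promoter peak, 1101 had a lost one and 542 were cleared. On that base potassium channel genes lay below all genes and Zfp genes above. The shares that follow are of all genes of a family and differ from this order. Of 94 potassium channel genes 12 (12.8%) had a lost peak and 5 were cleared (5.32%), with Kcnab1, a subunit of voltage-gated channels, at 5.09 as the highest of these. Of 368 solute carriers 29 (7.88%) did and 18 were cleared (4.89%), led by Slc13a3 at 6.95 and Slc15a3 at 6.69. Of 44 collagen genes 8 (18.2%) did, led by Col23a1 at 5.63, and 1 was cleared, Col7a1 of the skin anchoring fibrils at 4.56. Of 370 Zfp genes 12 (3.24%) did and 8 were cleared, with Zfp629 at 6.69. Protocadherins had 3 of 36 and ribosomal protein genes 1 of 144, which was the kinase gene Rps6kl1 taken up by its name. Of 1113 olfactory receptor genes 7 had an ES promoter peak, and 6 of these (0.539% of the family) had a lost one and were cleared. None of 327 vomeronasal receptor genes had an ES promoter peak that could be lost. The 1 pluripotency gene of 23 with an ES promoter peak had a kept one.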

How the data were processed

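Peak lists of 10 of the 16 libraries were analysed, and the 6 input libraries were not analysed here. Per the labels and the study's methods, the authors aligned reads to mm9 with Bowtie2 and called peaks per library with MACS2 version 2.1.0, so no replicates were pooled. Deposited values were the fold enrichment, a ratio over local background, the −log10 p-value and −log10 q-value, and a score obtained by rounding down a 10-fold multiple of −log10 p (for the 8 lists of histone marks) or of −log10 q (for the 2 of Flag), all as deposited by the authors. Read depth is unknown, so its effect on which peaks were called was not tested.

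Overlap meant at least 1 bp and was checked with bedtools 2.31.1. Sequence came from NCBIM37 and genes from GENCODE M1. Python 3.11.15, pandas 2.3.3, numpy 2.4.6 and scipy 1.17.1 were used, and the overlap, repeat and word counts were tested on simulated data. No test of conditions was made. Named peaks were the 15 of highest fold at promoters, found again, of genes without an NPC peak, the 5 highest not found again, the 5 widest, the 5 highest in exons, introns and intergenic sequence, the 5 genes with most lost peaks, up to 4 members per gene list, and the study's genes. Some peaks and genes that this rule names are not reported here. Members and lists were chosen with earlier results of these data known. The tandem, recurring and CpG-rich 1-place criteria and the 12-base word were added after seeing the data. Alternatives tried were the overlap minimum, score and q-value limits, extended or merged peaks, the promoter window, chromosomes 1 to 19 alone and the sequence criteria.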

Additional observations from a re-analysis of the deposited data

Results flagged for a closer look

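The share of lost peaks overlapped by H2AK119ub1 was lower in PCGF5-depleted than in wild type ES, by -11.6 percentage points as depleted minus wild type, and higher in PCGF5-depleted than in wild type NPC, by 1.05 percentage points. Over all wild type ES H3K27me3 peaks the share was 27.4% in wild type and 17.7% in PCGF5-depleted ES, and 13.3% and 13.0% in NPC, so the lower share in ES was not particular to the lost peaks. Of the 73 lost peaks with this mark in PCGF5-depleted NPC, 47 were recurring and 35 were tandem repeats. Of the 14 in wild type NPC, 7 were recurring and 8 were tandem repeats. Among the 4213 lost peaks that were not recurring, 26 had the mark in PCGF5-depleted NPC and 7 in wild type NPC. The values of the lost peaks were picked out because they have opposite signs in ES and NPC. The difference between them was not tested, as each list comes from 1 library.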

How the results depend on the processing

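The shares found again in PCGF5-depleted ES, at a promoter and with H2AK119ub1 of wild type ES were lower in lost than in kept peaks under every setting in which both were computed, which leaves out the promoter window of 1000 bp. With the higher-scoring 50% of the ES list, 2219 peaks were lost, 24.1% were found in PCGF5-depleted ES, the median fold was 4.83, H2AK119ub1 of wild type ES overlapped 29.5%, the CpG ratio was 0.254, 241 genes were cleared, 26.3% were tandem repeats and 41.3% recurring. With q below 0.05 the values were 16.8% found again, fold 4.30, 20.4% with H2AK119ub1, 16.5% tandem and 27.6% recurring. Requiring 50% of a peak to be covered gave 12.7% found again, 27.1% at promoters, 13.4% with H2AK119ub1, a CpG ratio of 0.277 and 23.9% recurring. NPC peaks extended by 1000 bp gave 13.6% found again, 18.3% at promoters, a ratio of 0.247, 17.4% tandem and 27.99% recurring. Merging peaks within 1000 bp gave 20.5% at promoters and 16.99% tandem, and a promoter window of 1000 bp gave 16.8% at promoters.

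The alternatives that follow were chosen after seeing the data. Without tandem repeats, 14.2% were found again, 27.5% were at promoters, 14.0% had H2AK119ub1, the ratio was 0.301 and 14.3% were recurring. Without recurring sequence these were 13.2%, 27.9%, 12.8% and 0.298, with 2.63% tandem. A tandem match of 60% gave 17.5% and one of 80% gave 11.7%. A limit of 25% or 75% of words at 1 place gave 20.4% or 29.4% recurring. The causes were not tested. No paired analysis was possible because each group is 1 library, and for the same reason no replicate could be left out.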
